A study of Mus musculus with 5 samples.

Results

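The visceral fat progenitors that carried both CD26 and CD142 on their surface were compared with those that carried CD142 without CD26. There was 1 VAT CD26+CD142+ library and a pair of VAT CD26-CD142+ libraries, called library 1 and library 2 here, so the comparison used 3 of the 5 RNA-seq libraries of the study. VAT is visceral adipose tissue and SAT is subcutaneous adipose tissue. Per the labels, all groups were wild-type mice (genotype WT) on a chow diet, 30 mice aged 12 to 14 weeks supplied the stromal cells, and no group carried a transgene or received an agent. Strain and sex are not given in the sources used here. The stromal vascular fraction, which is what remains of fat after collagenase digestion and removal of the floating adipocytes, was stained and sorted by flow cytometry. Cells with CD31 (endothelium) or CD45 (blood lineage) were discarded, and the remaining ones were separated by CD26 and by CD142, the latter seen through a secondary antibody. Nothing in the labels tells whether each library had its own pool of mice, so the spread between the pair may be technical. Of 54532 genes in the table, 15920 passed a filter on low counts and were tested.

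CD26 is dipeptidyl peptidase 4, the product of Dpp4, and in mouse fat it marks interstitial progenitors, which lie in the connective tissue around the organ and can give rise to other progenitors. CD142 is tissue factor, the product of F3 and the starter of blood clotting; among fat progenitors it marks cells named adipogenesis-regulatory cells (Aregs). Committed preadipocytes, a further class, express Pparg, the nuclear receptor that drives fat cell formation. Visceral fat is also covered by mesothelium, an epithelium-like layer with keratins, mesothelin and uroplakins, which subcutaneous fat lacks.

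Total counts ran from 21706345 to 23021617 in the 3 VAT libraries. Levels are given as CPM, read counts per 1000000 after TMM scaling, which evens out library composition. Among the VAT libraries, library 1 stood apart in 2 ways that touch the comparison. Mitochondrially encoded genes made up 4.33% of its reads, where library 2 had 0.633% and the double-positive library 0.620%. Its ratios also followed gene length: the median log2 ratio of the CD26+CD142+ library over library 1 was -0.37 for genes under 1000 bases and 0.45 for genes of 8000 bases or more, while over library 2 it stayed between -0.03 and -0.01 in all 5 length classes. Library 2 is therefore also given alone as the reference. Library names end in 1 for library 1 and the SAT library named for CD142, and in 2 for the others. The CD26+CD142+ library thus shares its number with library 2 and not with library 1. Mitochondrially encoded genes made up 2.83% of reads in the SAT library ending in 1 and 0.554% in the other. Genes of 8000 bases or more held 14.2% and 17.3% of counts at number 1, and 20.4% to 22.4% at number 2. The part of this number in the results was not tested.

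**Figure D1:**
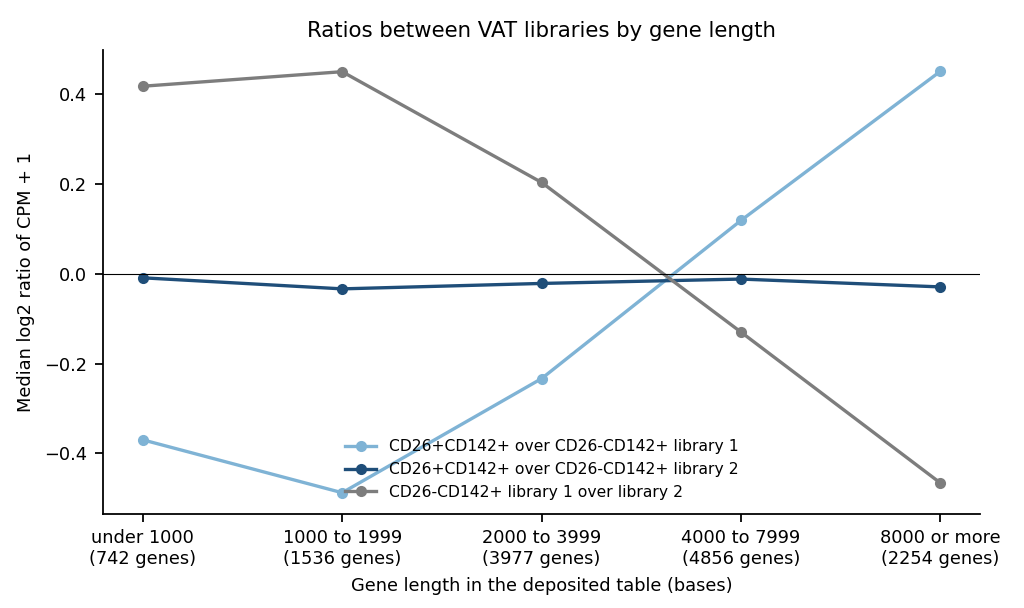
Median log2 ratio of CPM + 1 between pairs of VAT libraries (vertical axis) in 5 classes of gene length in bases (horizontal axis, number of genes in brackets). Both lines that involve library 1 cross 0 and reach about 0.4 in size at either end, for example 0.45 at 8000 bases or more, while the line of CD26+CD142+ over library 2 stays near 0.

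The genes of the sort went with the labels of the 3 VAT libraries, more clearly for CD26 than for CD142. Dpp4 (ENSMUSG00000035000, mm10 chromosome 2, 62330073 to 62412231, minus strand) was at 417 CPM (95% Poisson interval 409 to 425) in the CD26+CD142+ library and at 5.13 and 6.58 CPM in libraries 1 and 2. The CD26+CD142+ value lay 70.9-fold above the mean of the pair (counting interval 62.8 to 80.4), with a log2 change of 6.15 (SE 0.54, adjusted p = 6.72e-05 in edgeR's quasi-likelihood test). F3 (ENSMUSG00000028128, chromosome 3, 121723537 to 121735048, plus strand) was at 99.1 CPM in the CD26+CD142+ library, below both the 379 CPM of library 1 and the 241 CPM of library 2. Its log2 change of -1.65 (SE 0.56, adjusted p = 0.246) did not pass, except with DESeq2 (adjusted p = 0.0495). The CD26+CD142+ library thus held F3 RNA well above the 3-count floor, 0.124 CPM, but at a lower level than its reference. Intervals and floors cover counting error only.

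Of the other markers of these populations, 2 rose and 1 fell. Pi16, a peptidase inhibitor gene of interstitial fibroblasts, was at 2083 CPM against 333 and 277 CPM, a log2 change of 2.77 (SE 0.54, adjusted p = 0.0134). Bmp7, a bone morphogenetic protein gene, was at 68.1 CPM against 1.28 and 1.85 CPM (log2 change 5.44, SE 0.52, adjusted p = 6.72e-05). Pparg was at 2.18 CPM (1.64 to 2.86) against 30.7 and 27.0 CPM, a log2 change of -3.72 (SE 0.59, adjusted p = 0.00352). For each of Dpp4, Pi16 and Bmp7 the CD26+CD142+ value lay above both reference libraries, and for F3 and Pparg it lay below both.

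The 250 bases before the start of both sort genes are printed because these genes define the gate and differ in base composition at their starts. The sequences are RefSeq's on GRCm38.p6 and run 5′ to 3′ in the direction of transcription. Both strands were searched for 3 motifs, which are in capitals. They are the TATA box core TATAAA, the GC box core GGGCGG and the motif of AP-1 factors, TGANTCA.
Dpp4 (chr2:62412232-62412481, minus strand): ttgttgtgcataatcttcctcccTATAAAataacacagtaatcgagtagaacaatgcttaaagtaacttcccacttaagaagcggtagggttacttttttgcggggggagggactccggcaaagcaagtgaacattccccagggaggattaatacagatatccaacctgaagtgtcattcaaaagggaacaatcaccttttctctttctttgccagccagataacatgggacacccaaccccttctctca
F3 (chr3:121723287-121723536, plus strand): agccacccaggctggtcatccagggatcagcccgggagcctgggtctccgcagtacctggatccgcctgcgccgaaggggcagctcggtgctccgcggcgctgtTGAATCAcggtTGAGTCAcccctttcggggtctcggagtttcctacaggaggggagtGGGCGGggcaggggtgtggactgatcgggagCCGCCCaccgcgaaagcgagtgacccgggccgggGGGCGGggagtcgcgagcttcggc
The Dpp4 window was 43.6% G or C with 4 CpG pairs, and the F3 window 70.0% with 24, where the median over 32851 windows of all genes was 52.4% and 6. The Dpp4 window held 1 TATAAA, which 12.4% of all windows hold. This match lies near the upstream end of the window, far from the gene start. The F3 window held 3 matches of GGGCGG, found at least once in 32.7% of all windows, and 2 of TGANTCA, found in 6.75%. In windows of tested genes the shares were 6.86% for TATAAA, 55.3% for GGGCGG and 4.68% for TGANTCA.

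Across all tested genes, 143 rose in CD26+CD142+ cells (0.898% of those tested) and 111 fell (0.697%), at an adjusted p under 0.05 in edgeR, which is 1.60% in either direction. The fitted log2 change of the 143 ran from 1.90 to 8.74 with a median of 3.52, and that of the 111 from -9.12 to -2.30 with a median of -3.51, while the median over all tested genes was -0.03. All 143 were above both reference libraries and all 111 below both. Protein-coding genes made up 133 of the former and 109 of the latter. The test rests on 1 residual degree of freedom, the spread between libraries 1 and 2, and it takes the single CD26+CD142+ library to be as variable as they were.

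The groups were also compared by size alone, with no test. At 2-fold or more on CPM + 1, and with 10 CPM or more in each library of the higher group, 284 genes (1.78%) were higher than both reference libraries and 295 (1.85%) lower than both. Against library 2 alone 344 genes (2.16%) were higher and 442 (2.78%) lower. Against library 1 alone the numbers were 894 (5.62%) and 733 (4.60%), and between the references themselves 283 genes (1.78%) were higher and 631 (3.96%) lower in library 1 than in library 2. Of the genes that rose in the test, 106 of 143 met this rule against library 2, and of those that fell, 88 of 111 did. The other called genes were under the 10 CPM minimum or short of 2-fold after the added 1 CPM.

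**Figure D2:**
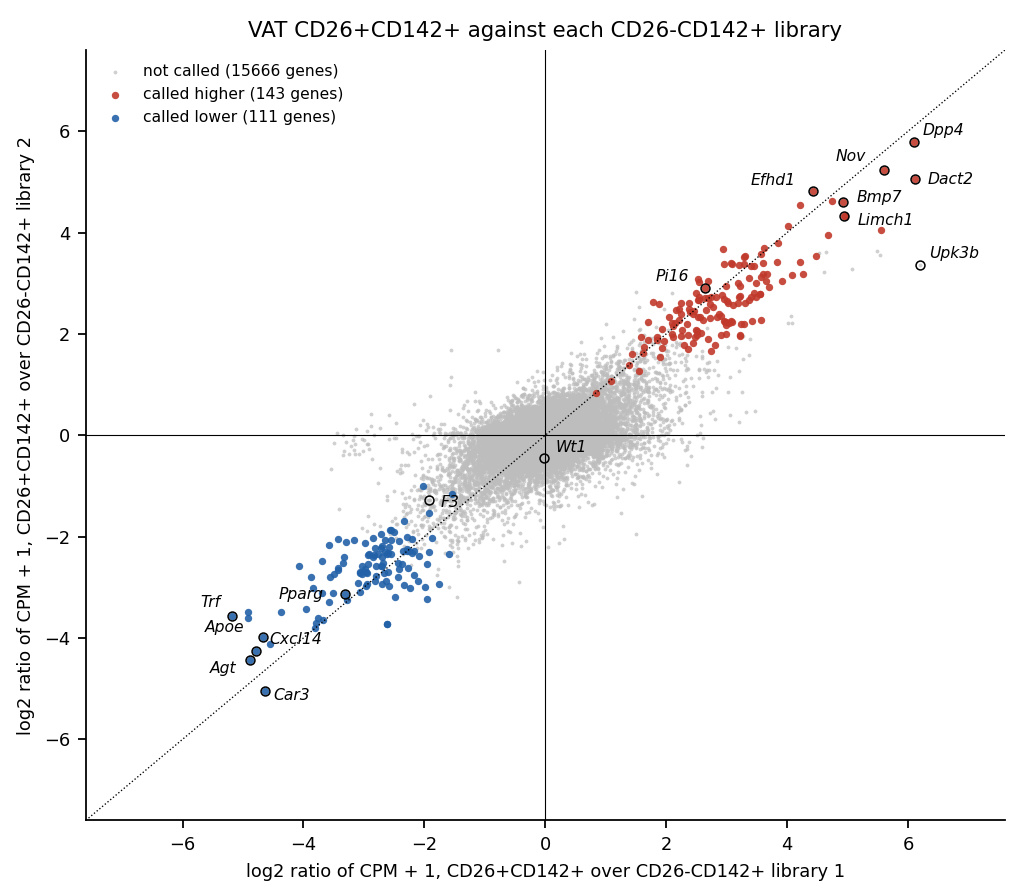
Log2 ratio of CPM + 1 of the CD26+CD142+ library over library 1 (horizontal axis) and over library 2 (vertical axis), 1 point per tested gene, with the 143 genes called higher in red, the 111 called lower in blue and the rest in grey. Dpp4 lies far up the diagonal, Wt1 near the origin, and Upk3b far to the right of the diagonal because it was lower in library 1 (0.321 CPM) than in library 2 (8.43 CPM).

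Among the 14 largest increases, Bco1 (chromosome 8, 117095854 to 117133720), whose enzyme splits beta-carotene into retinal, had 288 counts in CD26+CD142+ cells (11.9 CPM) against 1 and 0 counts, a ratio of 535 with a counting interval of 95.3 to 21204. Mrgprg, which codes for an orphan receptor of the Mas-related family, had 402 counts (16.6 CPM) against 2 and 0, a ratio of 373 (103 to 3094). Both were close to silent in the reference and at a moderate level in the double-positive library. Dact2, whose product binds Dishevelled and dampens Wnt signalling, was at 216 CPM against 2.15 and 5.55 CPM (log2 change 5.81, SE 0.58). Nov, also known as Ccn3, codes for a matricellular protein and was at 237 CPM against 3.90 and 5.33 CPM (5.68, SE 0.51). Adamts16, a gene of a secreted metalloprotease, was at 56.6 CPM against 1.15 and 1.33 CPM (5.51, SE 0.53). For these 3 genes both reference libraries lay far below the CD26+CD142+ library, and for Dact2 the references themselves differed, so its log2 change was 5.28 without library 1 and 6.65 without library 2.

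Dpp4 and Bmp7, given above, were also among the 14 largest increases. The rest lay between 11.2 and 19.3 CPM in the CD26+CD142+ library and under 1 CPM in each reference library. Dsp, the desmoplakin gene of desmosomes, was at 11.7 CPM against 0.0458 and 0.215 CPM. Igsf1, which codes for a membrane protein of the immunoglobulin superfamily, was at 12.0 CPM against 0.321 and 0.129 CPM. Dmkn, the gene of the secreted epidermal protein dermokine, was at 11.9 CPM against 0.321 and 0.129 CPM. Low as the reference values are, each of the 3 genes separated the groups by over an order of magnitude. Gpm6a, a membrane glycoprotein gene of neurons and mesothelium, was at 19.3 CPM against 0.0917 and 0.903 CPM. Pld5, a member of the phospholipase D family, was at 11.2 CPM against 0 and 0.344 CPM. The calls of Pld5 (adjusted p = 0.0736) and Gpm6a (0.0893) were lost with the length trend removed, and those of Pld5 (adjusted p = 1), Mrgprg (0.441) and Duox1 (0.592) with DESeq2.

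**Figure D3:**
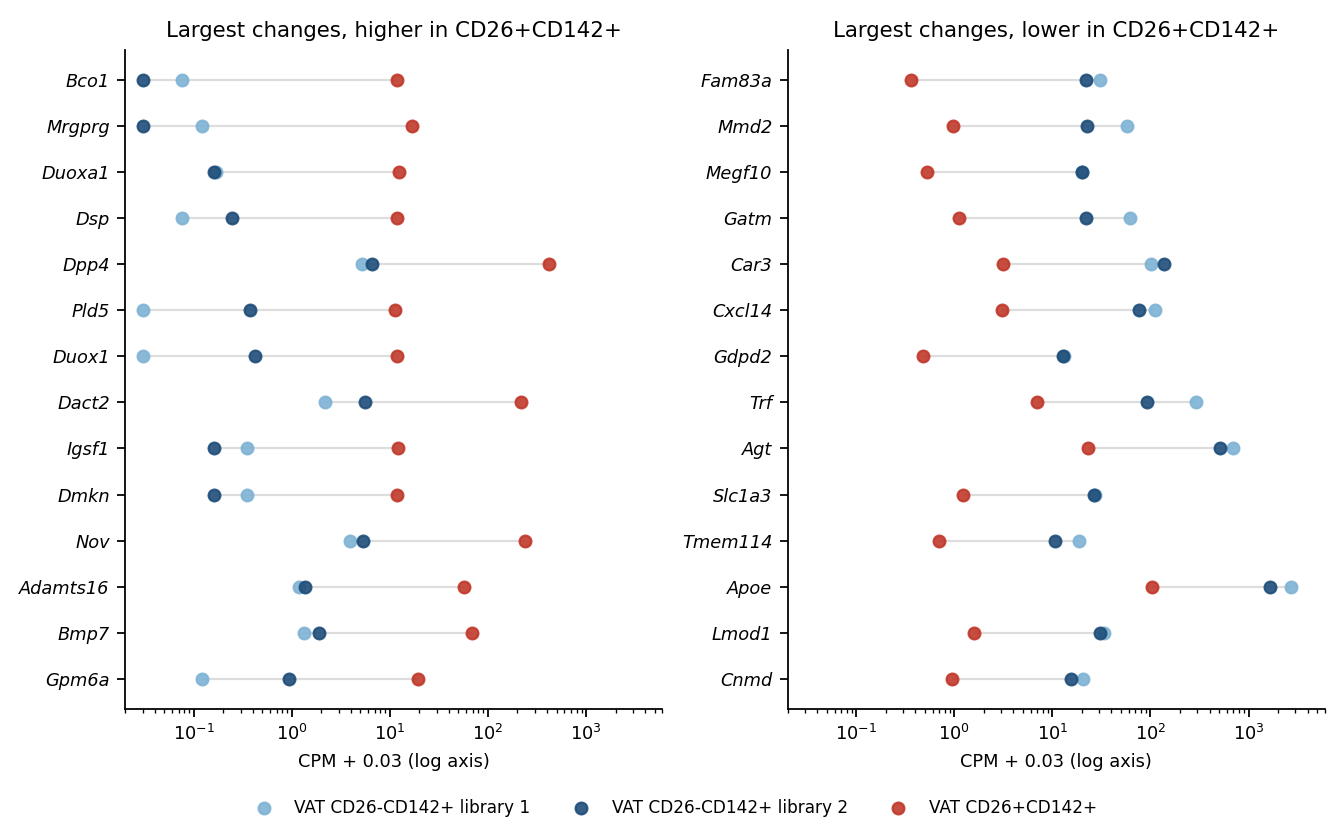
Levels of the 14 largest increases (left) and 14 largest decreases (right) in CPM + 0.03 on a log axis, 1 point per VAT library. In each gene the CD26+CD142+ point stands outside the pair of CD26-CD142+ points, which the rule that picked these genes requires. Dpp4 is at 417 CPM against 5.13 and 6.58 CPM, and Apoe at 104 CPM against 2694 and 1660 CPM.

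A neighbouring gene pair of peroxide production rose together. Duox1 codes for a dual oxidase, a membrane enzyme that releases hydrogen peroxide, and Duoxa1 for the factor it needs to leave the endoplasmic reticulum. Duox1 was at 11.7 CPM against 0 and 0.387 CPM (log2 change 5.84, SE 0.91, adjusted p = 0.0219), and Duoxa1 at 12.4 CPM against 0.138 and 0.129 CPM (6.49, SE 0.68, adjusted p = 1.13e-04). Duox2, the paralog of Duox1, had 21 counts against 0 and 0 (at least 13.0-fold higher than 3 counts over both reference libraries) and did not pass (adjusted p = 0.183). Nox4, another peroxide-forming oxidase gene, was at 22.5 CPM against 10.4 and 11.8 CPM and did not pass. Of 8 tested NADPH and dual oxidase genes 2 rose and 0 fell. The starts of Duoxa1 and Duox1 lie 1942 bases apart on chromosome 2 and point away from each other. The 250 bases before each start are shown because the pair moved together, with capitals as above.
Duoxa1 (chr2:122313731-122313980, minus strand): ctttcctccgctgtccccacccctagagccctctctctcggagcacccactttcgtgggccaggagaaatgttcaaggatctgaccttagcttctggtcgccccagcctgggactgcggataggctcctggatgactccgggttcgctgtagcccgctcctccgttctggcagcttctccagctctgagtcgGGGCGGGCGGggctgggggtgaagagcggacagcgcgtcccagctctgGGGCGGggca
Duox1 (chr2:122315422-122315671, plus strand): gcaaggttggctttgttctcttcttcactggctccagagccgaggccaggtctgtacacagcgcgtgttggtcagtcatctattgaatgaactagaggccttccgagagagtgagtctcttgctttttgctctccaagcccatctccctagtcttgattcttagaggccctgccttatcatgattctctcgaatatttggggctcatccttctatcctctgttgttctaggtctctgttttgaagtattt
The Duoxa1 window was 65.6% G or C and held 3 matches of GGGCGG, while the Duox1 window was 47.6% G or C and held none of the 3 motifs. In 14152 windows of tested genes, 55.3% held GGGCGG.

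Among the 14 largest decreases, Apoe, the gene of apolipoprotein E, which carries lipid between cells, was at 104 CPM (100 to 109) against 2694 and 1660 CPM (log2 change -4.38, SE 0.72, adjusted p = 0.00426). Agt, the gene of angiotensinogen, was at 22.8 CPM against 702 and 514 CPM (-4.74, SE 0.66). Trf, the gene of the iron carrier transferrin, was at 6.92 CPM against 288 and 93.1 CPM (-4.78, SE 0.82), and its call was lost with the length trend removed (adjusted p = 0.0662). All 3 were abundant in the CD26-CD142+ libraries and remained detected in the CD26+CD142+ library. Cxcl14, a chemokine gene, was at 3.05 CPM against 110 and 76.0 CPM. Car3, a carbonic anhydrase gene of fat and muscle, was at 3.13 CPM against 102 and 136 CPM. Gatm, whose enzyme makes the first step of creatine synthesis, was at 1.07 CPM against 62.0 and 22.1 CPM. Slc1a3, a glutamate transporter gene, was at 1.20 CPM against 27.0 and 26.3 CPM.

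The other 7 of the 14 were at 0.330 to 1.57 CPM in the CD26+CD142+ library and between 10.6 and 58.0 CPM in the reference libraries. The steepest was Fam83a, a gene of a signalling adaptor of the FAM83 family, with 8 counts against 662 and 512 (log2 change -6.29, SE 0.80, adjusted p = 6.60e-04). Lmod1, the gene of leiomodin 1, an actin nucleator of smooth muscle, was at 1.57 CPM against 33.6 and 30.4 CPM, and Cnmd, the gene of the angiogenesis inhibitor chondromodulin, at 0.907 CPM against 20.6 and 15.6 CPM. Megf10, an engulfment receptor gene, was at 0.495 CPM against 19.8 and 20.0 CPM. Mmd2, Gdpd2 and Tmem114 made up the rest.

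Markers of CD26+ interstitial progenitors were higher as a list. Of 25 tested, 17 rose and 0 fell, and all 25 were above both reference libraries. Over all tested genes 0.898% rose. The list was chosen with earlier results of these data known, so its counts are a description and not independent support. The 17 include Dpp4, whose product the cells were sorted on, and Pi16 and Bmp7, given above. The median log2 change was 2.74, and 2.58 on CPM + 1 against library 2 alone, where 23 were at least 2-fold higher (21 against library 1). Limch1, a gene of an actin-binding protein, was at 125 CPM against 3.12 and 5.29 CPM, and Efhd1, a gene of a mitochondrial calcium-binding protein, at 131 CPM against 5.18 and 3.70 CPM. Pcsk6, whose convertase cleaves growth factor precursors, was at 1179 CPM against 68.4 and 131 CPM. Anxa3, an annexin gene, was at 467 CPM against 50.6 and 57.6 CPM. In these 4 genes both reference libraries lay far below the CD26+CD142+ library. Cd55, which codes for a surface brake on complement and is used to sort these cells, was at 755 CPM against 112 and 113 CPM. Tek, the gene of the angiopoietin receptor Tie2, was at 286 CPM against 58.9 and 66.7 CPM. Ackr3, the gene of a scavenging chemokine receptor, was at 1676 CPM against 307 and 320 CPM.

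The 8 interstitial markers that did not pass were Fn1, Ly6c1, Cd34, Axin2, Creb5, Emilin2, Smpd3 and Dpt. Fn1, the fibronectin gene and one of the most abundant transcripts, was at 13016 CPM against 1348 and 4569 CPM (log2 change 2.14, SE 0.68, adjusted p = 0.229), with a wide gap between the reference libraries. Dpt, the dermatopontin gene of a wider progenitor pool, was at 4037 CPM against 2806 and 1994 CPM (0.75, SE 0.56). Axin2, a target of Wnt signalling, was at 22.9 CPM against 19.8 and 22.7 CPM. Wnt2, counted among the 17, was low everywhere at 3.50 CPM against 0.458 and 0.344 CPM, and its call was lost with limma-voom (adjusted p = 0.201) and with the VAT libraries alone (0.115). Opcml lost its call with the length trend removed (adjusted p = 0.241).

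**Figure D4:**
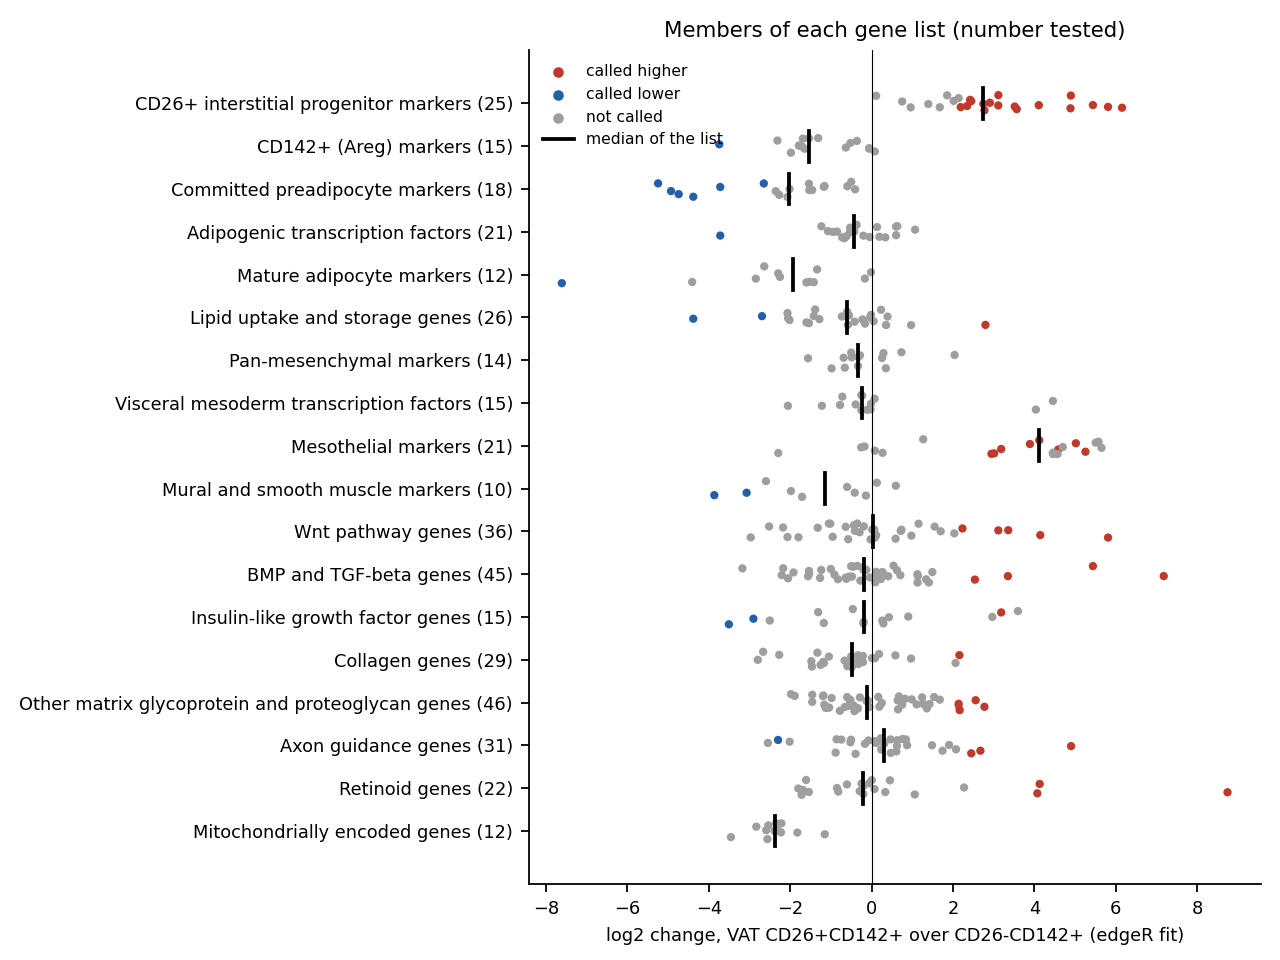
Fitted log2 change of CD26+CD142+ over CD26-CD142+ (horizontal axis) for the tested members of 18 gene lists (rows, number tested in brackets), with a black bar at each median. The interstitial markers lie to the right of 0 (median 2.74) and the Areg (-1.54) and committed preadipocyte markers (-2.04) to the left; mesothelial markers have the highest median, 4.12.

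Markers of CD142+ Aregs leaned the other way but mostly did not pass. Of 15 tested, 0 rose and 1 fell. It was Rgcc, a cell cycle regulator gene, at 3.96 CPM against 58.4 and 47.7 CPM (log2 change -3.74, SE 0.59, adjusted p = 0.00319). The median was -1.54, and -1.28 on CPM + 1 against library 2 alone, with 12 of 15 below both reference libraries. Mgp, the matrix Gla protein gene, was at 183 CPM against 820 and 624 CPM (-1.98, SE 0.57, adjusted p = 0.129). Adamts15, a metalloprotease gene, was at 57.2 CPM against 346 and 223 CPM (-2.31, SE 0.57, adjusted p = 0.0557); its adjusted p ran from 6.22e-04 to 0.105 over 11 alternatives and was under 0.05 in 8. Gdf10, a gene of the TGF-beta family, was at 605 CPM against 1934 and 1580 CPM (-1.54, SE 0.59). Vit, Rspo1 and Aldh1a2 stayed within the range of the reference libraries, as Rspo1 with 101 CPM against 103 and 88.3 CPM. With DESeq2 the number that fell was 8.

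Committed preadipocyte markers were lower. Of 18 tested, 0 rose and 6 fell (Pparg, Car3, Apoe, Sdc1, Cxcl14 and Agt), with a median of -2.04 and 17 of 18 below both reference libraries. Sdc1, the gene of the surface proteoglycan syndecan 1, was at 6.64 CPM against 45.7 and 37.6 CPM (log2 change -2.65, SE 0.55, adjusted p = 0.0209). Fabp4, a fatty acid binding protein gene, was at 81.1 CPM against 373 and 307 CPM (-2.07, SE 0.55, adjusted p = 0.0859), and Col15a1, a collagen gene, at 239 CPM against 822 and 1484 CPM (-2.27, SE 0.62, adjusted p = 0.103). Neither passed. Lpl, the lipoprotein lipase gene, was at 285 CPM against 1156 and 500 CPM.

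Other genes of fat cell formation moved less. Of 21 adipogenic transcription factors, Pparg fell and no other passed, with a list median of -0.42. Cebpa, a partner of Pparg, was at 37.2 CPM against 89.8 and 85.3 CPM (log2 change -1.23, SE 0.50, adjusted p = 0.418). Ebf2, a factor of adipocyte precursors, was at 215 CPM against 128 and 150 CPM, and Zfp521, a brake on adipogenesis, at 95.9 CPM against 42.5 and 49.0 CPM; these were above both references without passing. Of 26 lipid uptake and storage genes, Apoe and Apod fell (2 to 5 genes over the alternatives) and Mgll rose. Apod, another apolipoprotein gene, was at 60.2 CPM against 467 and 312 CPM, and Mgll, the gene of monoglyceride lipase, at 68.6 CPM against 10.1 and 9.63 CPM (2.80, SE 0.46, adjusted p = 0.00418).

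Mature adipocyte transcripts were scarce in all 3 libraries. Of 12 tested markers 1 fell, Plin1, the gene of the lipid droplet coat protein perilipin 1, with 1 count (0.0412 CPM) in CD26+CD142+ cells against 5.36 and 12.9 CPM (ratio 0.00447, counting interval 1.13e-04 to 0.0250); limma-voom did not call it (adjusted p = 0.210). The summed level of the list was 60.9 CPM against 108 and 115 CPM, and Adipoq, the adiponectin gene, was at 0.412 CPM against 1.74 and 3.44 CPM. Of the insulin-like growth factor genes, 1 of 15 rose and 2 fell. Igf1 was at 84.3 CPM against 1225 and 692 CPM (log2 change -3.51, SE 0.66, adjusted p = 0.0117), a call lost with the length trend removed (0.0555), and Pappa, whose protease frees IGF from its binding proteins, at 6.84 CPM against 29.6 and 72.9 CPM. Igfbp5, the gene of a binding protein, rose, at 464 CPM against 58.7 and 43.5 CPM (3.18, SE 0.54).

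Mesothelial markers had the highest fitted median of the lists, with several members near 0 CPM in the reference libraries. Of 21 tested, 8 rose and 0 fell (Msln, Krt7, Krt8, Krt18, Gpm6a, Igfbp5, Podxl and Clu), and the median was 4.12. On CPM + 1 against library 2 alone it was 2.74, near the 2.58 of the interstitial list. Msln, the mesothelin gene, was at 38.5 CPM against 0.779 and 2.41 CPM (log2 change 4.59, SE 0.66, adjusted p = 0.00255). The keratin genes Krt7 and Krt8 were at 7.34 and 8.53 CPM in the CD26+CD142+ library and under 1 CPM in each reference library, and Krt18 at 4.16 CPM against 0.733 and 0.344 CPM lost its call with limma-voom (adjusted p = 0.174) and with the VAT libraries alone (0.119). Upk3b, a uroplakin gene, was at 96.2 CPM against 0.321 and 8.43 CPM (4.45, SE 1.74, adjusted p = 0.734), and Krt19, a further keratin gene, at 25.6 CPM against 0.0917 and 1.85 CPM; neither passed, and the reference libraries differed more from each other than for the genes above. The markers Upk1b, Lrrn4, Muc16 and Bnc1, had 0 counts in library 1, between 10 and 24 counts in library 2, and 5.36 to 23.9 CPM in the CD26+CD142+ library without passing.

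Not all of that list moved. Wt1, a transcription factor gene of mesothelium that visceral progenitors also express, was at 112 CPM against 113 and 154 CPM, Nkain4 at 23.5 CPM against 28.2 and 24.9 CPM, and Cldn15, a claudin gene, at 15.1 CPM, below 89.1 and 59.4 CPM (log2 change -2.29, SE 0.55, adjusted p = 0.0511). Over the alternatives the number that rose ran from 4, with a filter at 5 CPM in 2 libraries, to 14, with no filter or without robust estimation, and Cldn15 passed as lower in 8 of 11 alternatives. No marker of the list was at 0 in the CD26+CD142+ library. Summed over 22 genes the list was at 15650 CPM against 9303 and 14280 CPM, of which the complement gene C3, also expressed by fibroblasts, gave 12896, 8180 and 13218 CPM. In bulk RNA, more cells of a type and more RNA per cell cannot be told apart. Dsp, Gpm6a and Igfbp5, given above, belong to epithelial or mesothelial expression too, and the part of mesothelial RNA in the 143 increases was not tested.

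**Figure D5:**
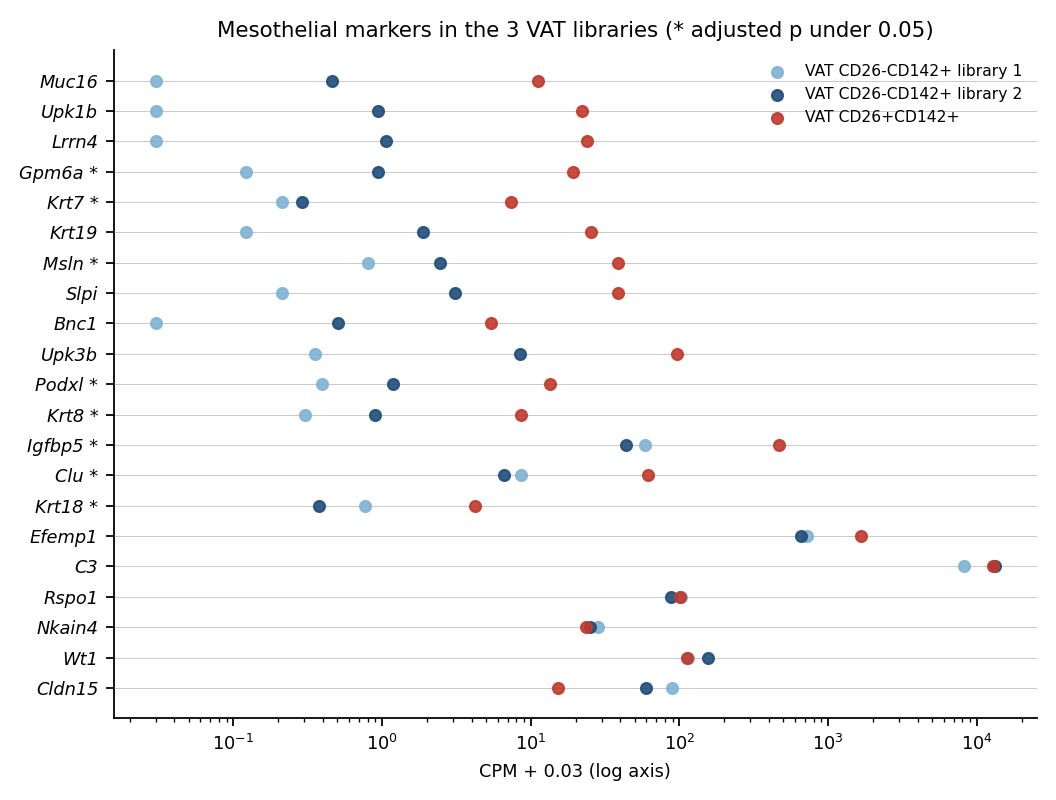
Levels of the 21 tested mesothelial markers in CPM + 0.03 on a log axis, 1 point per VAT library, ordered by fitted log2 change, with stars on the 8 genes that passed. In 16 genes the CD26+CD142+ value is at least 2-fold above both references on CPM + 1; Wt1, Nkain4 and Rspo1 lie together, Wt1 at 112 CPM against 113 and 154 CPM.

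Markers of other cell types were counted too, including those of the endothelial and immune cells that the gate discards. With 1.60% of all tested genes called in either direction, 0 calls in a short list is near that share. The endothelial list summed to 27.7 CPM against 23.2 and 12.9 CPM, and 0 of 11 tested markers passed in edgeR, DESeq2 or limma-voom (1 at an unadjusted p under 0.05). The macrophage list summed to 27.2 CPM against 40.8 and 25.1 CPM, with 0 of 10 past the threshold of any of the 3 tools (3 at an unadjusted p under 0.05). Pecam1, the gene of CD31, was at 4.70 CPM against 4.90 and 2.32 CPM, and Ptprc, the gene of CD45, at 0.989 CPM against 0.183 and 0.387 CPM. Of 10 mural and smooth muscle markers 2 fell, and the list summed to 121 CPM against 217 and 228 CPM. Myh11, the smooth muscle myosin gene, was at 5.98 CPM against 37.9 and 62.6 CPM (log2 change -3.07, SE 0.59, adjusted p = 0.0129), and Abcc9, a channel subunit gene of pericytes, at 0.536 CPM against 7.24 and 8.51 CPM, a call lost with limma-voom (0.114). Rgs5, a pericyte marker, was at 2.60 CPM against 2.06 and 1.38 CPM, and Lmod1 moved with Myh11. The part of mural RNA in the 111 decreases was not tested. Of the Schwann cell markers 0 of 6 passed (5 at an unadjusted p under 0.05, 2 of them higher; up to 1 rose and 2 fell over 11 alternatives), and Ngfr was at 0 in the CD26+CD142+ library.

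Several ligands of the bone morphogenetic protein (BMP) family rose with Bmp7. BMPs bind paired receptors and act through SMAD factors, with Id genes as common targets. Of 45 tested BMP and TGF-beta genes 4 rose and 0 fell, with a median of -0.20. Bmp6 was at 142 CPM against 9.95 and 17.8 CPM (log2 change 3.35, SE 0.50, adjusted p = 0.00213), and Bmp2 at 36.8 CPM against 4.03 and 8.64 CPM (2.54, SE 0.51, adjusted p = 0.0197; 0.0736 with the length trend removed). Bmp3 had 19 counts against 0 and 0 (0.783 CPM, at least 11.8-fold higher than 3 counts over both reference libraries) and lost its call with limma-voom (adjusted p = 0.210), the VAT libraries alone (0.227) and the length trend removed (0.0635). Bmp8a, a further ligand gene, was not on the list and was added after its values were seen. It was at 5.89 CPM against 0.0458 and 0.387 CPM (4.71, SE 0.82, adjusted p = 0.00953) and lost its call with limma-voom (0.0573) and the length trend removed (0.0597). Receptor genes did not pass, among them Bmpr1a at 123 CPM against 112 and 115 CPM. Nor did the targets or modulators: Id1 was at 10.8 CPM against 71.0 and 26.0 CPM, Bambi, a decoy receptor gene, at 19.0 CPM against 109 and 66.4 CPM (adjusted p = 0.0672, past the threshold in 8 of 11 alternatives), and Bmper, a gene of a secreted BMP binder, at 152 CPM against 628 and 634 CPM (-2.05, SE 0.55, adjusted p = 0.0949). With DESeq2, 4 genes of the list rose and 5 fell.

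Of 36 Wnt pathway genes 5 rose and 0 fell, with a median of 0.04. Over 11 alternatives 4 to 6 rose, and in 4 of them 1 fell. Among ligands, Wnt10b, which restrains adipogenesis in mouse preadipocytes, was at 63.9 CPM against 3.53 and 3.70 CPM (log2 change 4.14, SE 0.48, adjusted p = 2.87e-04), and Wnt2 was described above. Among secreted inhibitors, Sfrp4 was at 161 CPM against 16.6 and 14.8 CPM (3.36, SE 0.48) and Sfrp2 at 109 CPM against 25.6 and 20.9 CPM (2.23, SE 0.48), while Sfrp1 was at 229 CPM against 429 and 462 CPM and did not pass. Dact2 rose, and its relative Dact1 was at 351 CPM against 118 and 99.0 CPM without passing (adjusted p = 0.104). Among receptors, Fzd4 was at 167 CPM against 188 and 240 CPM and Lrp6 at 125 CPM against 98.1 and 157 CPM. Ligands, inhibitors and a Dishevelled binder thus made up the 5, and no frizzled or LRP receptor gene passed.

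Of 29 collagen genes 1 rose, Col14a1, a gene of a fibril-associated collagen, at 1222 CPM against 238 and 311 CPM (log2 change 2.16, SE 0.51, adjusted p = 0.0449). The collagen median was -0.49, and the fibrillar collagen gene Col1a1 was at 1513 CPM against 1508 and 2736 CPM. Of 46 other matrix genes 4 rose and 0 fell, namely Pi16, Fbn1, Aspn and Thbs2; with DESeq2 7 rose and 2 fell. Fbn1, the fibrillin gene of elastic microfibrils, was at 4180 CPM against 533 and 889 CPM (2.56, SE 0.55, adjusted p = 0.0266), Aspn, a small proteoglycan gene, at 181 CPM against 52.4 and 28.7 CPM, and Thbs2, a thrombospondin gene, at 116 CPM against 20.7 and 32.2 CPM. Of 5 CCN genes Nov rose, while Cyr61 was at 807 CPM against 672 and 633 CPM and Ctgf at 160 CPM against 35.7 and 137 CPM. Of 33 matrix proteases and inhibitors Adamts16 and Pcsk6 rose and 0 fell.

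Smaller groups held single genes that passed. Of 31 axon guidance genes 3 rose (up to 5 over the alternatives) and 1 fell: Sema3c, a semaphorin gene used as an interstitial marker, was at 394 CPM against 67.4 and 77.0 CPM, Sema3e at 129 CPM against 1.79 and 6.84 CPM, and the guidance receptor gene Robo1 at 63.3 CPM against 8.02 and 11.8 CPM. Plxnd1, which codes for the receptor of semaphorin 3E, fell, at 19.2 CPM against 85.1 and 104 CPM (log2 change -2.30, SE 0.54, adjusted p = 0.0416). Ligand and receptor gene thus lay on opposite sides. Of 22 retinoid genes Bco1, Bco2 and Dhrs9 rose and 0 fell, but Bco2 (3.17 CPM against 0.0917 and 0.258 CPM) lost its call with limma-voom (adjusted p = 0.151) and the VAT libraries alone (0.0526), and Dhrs9 (1.94 CPM against 0 and 0.215 CPM) with those alternatives (0.253 and 0.235), DESeq2 (0.992) and the length trend removed (0.110). Of 34 growth factor and receptor tyrosine kinase genes Fgf1 and Tek rose, Fgf1 at 76.0 CPM against 5.13 and 8.30 CPM, and 0 fell, although up to 4 fell in 7 of 11 alternatives. Among these was Fgfr2, a fibroblast growth factor receptor gene, at 7.79 CPM against 36.9 and 32.9 CPM (adjusted p = 0.0551, past the threshold in 7 of 11).

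Of 28 chemokine and cytokine genes Ackr3 and Tnfrsf11b rose and Cxcl14 fell. Tnfrsf11b, the gene of the decoy receptor osteoprotegerin, was at 46.3 CPM against 3.03 and 5.89 CPM. Cxcl12, the ligand that Ackr3 takes up, was at 131 CPM against 763 and 426 CPM and did not pass (log2 change -2.18, SE 0.62, adjusted p = 0.120). Of 17 complement genes Cd55 and Clu rose and 0 fell. Of 23 Notch and Hedgehog genes Heyl, a Notch target, fell, at 4.49 CPM against 25.9 and 25.8 CPM. Of 14 junction genes Dsp and Cldn3 rose, the claudin gene Cldn3 at 4.45 CPM against 0.275 and 0.172 CPM (not with limma-voom, adjusted p = 0.0862).

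Lists in which 0 genes passed included the genes of visceral identity and of cell state. Over all tested genes only 1.60% were called in either direction. A count of 0 in lists this short therefore does not set them apart from other genes. Of 15 visceral mesoderm transcription factors 0 passed (3 at an unadjusted p under 0.05; up to 2 rose in 3 of 11 alternatives), and Tcf21 was at 229 CPM against 212 and 223 CPM, Gata6 at 76.5 CPM against 68.7 and 86.9 CPM and Meis2 at 39.1 CPM against 38.7 and 40.3 CPM. For these 3 the CD26+CD142+ value lay within or next to the reference range. Of 14 pan-mesenchymal markers 0 passed (2 at an unadjusted p under 0.05), and Pdgfra, the receptor gene shared by fat progenitors, was at 1108 CPM against 682 and 1173 CPM. Thy1, the gene of CD90, was at 250 CPM against 87.5 and 34.2 CPM (log2 change 2.04, SE 0.55, adjusted p = 0.114), and it passed in 5 of 11 alternatives (DESeq2 and 4 edgeR settings). In edgeR, DESeq2 and limma-voom 0 passed of 25 interferon response genes (6 at an unadjusted p under 0.05, all higher), of 12 class I antigen presentation genes (1) and of 20 immediate early genes (1). The same 3 tools called 0 of 11 heat shock and 0 of 24 cell cycle genes, with 0 of either at an unadjusted p under 0.05. The 12 mitochondrially encoded genes had a median of -2.37 in the fit and of -0.14 on CPM + 1 against library 2 alone, and 0 passed, nor at an unadjusted p under 0.05, although 7 fell in the fit with no filter on low counts.

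Some genes that rose lie near each other on the chromosome, a pattern looked for after the values were seen. Of the 143, 27 had another gene that rose within 100 kb (18.9%), against 348 of 15666 genes that were not called (2.22%). Of the 111 that fell, 10 had another that fell within that distance (9.01%), against 339 of the 15666 (2.16%). Neighbours in the opposite direction occurred too. Of the 143, 6 had a gene that fell within that distance (4.2%, against the same 2.16%). Of the 111, 5 had a gene that rose (4.5%, against 2.22%). Sbsn, Dmkn and Krtdap, 3 adjacent genes of secreted epidermal proteins on chromosome 7, rose together. Sbsn was at 123 CPM against 17.2 and 20.5 CPM, Dmkn is given above, and Krtdap was at 7.50 CPM against 0.504 and 0.215 CPM. Mrgprg and Mrgpre, receptor genes 11370 bases apart on chromosome 7, both rose, the latter at 21.8 CPM against 1.93 and 3.78 CPM (adjusted p = 0.0133; 0.0511 with the length trend removed). Bco1 and Pkd1l2 lie 13405 bases apart on chromosome 8, and Krt80 and Krt7 40881 bases apart on chromosome 15. Among genes that fell, Fndc5, the gene of the irisin precursor, was at 5.07 CPM against 124 and 67.1 CPM, and Hpca, a neuronal calcium sensor gene 14963 bases away on chromosome 4, at 18.8 CPM against 272 and 258 CPM. Reads of overlapping genes can be split between them in the counting.

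The 2 SAT libraries, which were in the fit but not in the contrast, are set beside it with a caveat. Their titles and library names give opposite gates: the library named for CD26 is titled CD26-CD142+, and the one named for CD142 is titled CD26+CD142-. Dpp4 was at 1007 CPM in the library named for CD26 and 6.58 CPM in the other, and F3 at 5.32 and 618 CPM. In the library named for CD26, 1079 genes (6.78%) were at least 2-fold higher than in the other and 1081 (6.79%) lower. Of the 143 genes that rose in VAT, 96 were at least 2-fold higher there and 9 lower, and of the 111 that fell, 66 were lower and 0 higher. Dpp4 and F3 went with the library names and not with the titles. If the titles hold, the direction is the reverse. The 2 SAT libraries also differ in library number, as the CD26+CD142+ library and library 1 do, so gate and number cannot be told apart between them. All 12 tested mitochondrially encoded genes were lower in the SAT library named for CD26, with a median log2 ratio of -2.58 on CPM + 1.

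Among the 14 largest increases, 12 were higher in the SAT library named for CD26, as were 49.2% of all tested genes. The other 2 were Dsp, at 0.135 CPM there and 2.60 CPM in the library named for CD142, and Gpm6a, at 0 and 0.130 CPM. Dmkn was at 107 CPM in the library named for CD26, above its 11.9 CPM in VAT, and Mrgprg at 126 CPM, above its 16.6 CPM. Of the 14 largest decreases 12 were lower in the library named for CD26 and the other 2, Mmd2 and Tmem114, had no counts in either SAT library. Their median log2 ratio on CPM + 1 was -0.863. Some of the 12 were close to the floor in both, as Megf10 at 0.0902 CPM in the library named for CD26 and 0.130 CPM in the other. Msln was at 0 CPM in both SAT libraries, and Upk3b at 0.406 CPM in the library named for CD26 and 0.0865 CPM in the other.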

How the data were processed

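The authors deposited raw read counts per Ensembl gene in 1 table, with a gene length in another unit, bases. Per the submitters' processing notes, the tools were CASAVA, HISAT2 2.0.5 and featureCounts 1.5.0-p3 on mm10; the annotation release and strand setting are not given in the sources used here. Totals were 21706345 to 25357403 counts per library. In edgeR 4.0.16 (R 4.3.3), genes were kept by filterByExpr (minimum count 10, depot as the group), which left 15920 and removed 38612, of which 27 reached 1 CPM and 0 reached 10 CPM in the CD26+CD142+ library. TMM-scaled counts were tested by quasi-likelihood F tests with robust dispersion on all 5 libraries in 4 groups, each SAT library on its own, with Benjamini-Hochberg adjustment at 0.05. Each SE was worked back from F (absolute log2 change over the root of F). Folds without a test used CPM + 1. Intervals are 95%, exact Poisson or exact conditional.

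Named were the 14 largest log2 changes per direction among protein-coding genes past the threshold, at least 2-fold apart from both references and at 10 CPM or more in each library of the higher side, besides the population markers and list genes. Members, lists and rules were chosen with earlier results of these data known. Lists are described by counts and medians, not tested. Alternatives were other scalings, filters and tools (DESeq2 1.42.0, limma-voom 3.58.1), the VAT libraries alone, mitochondrial genes left out, the length trend removed, and each reference library left out. Upstream sequences are from RefSeq (GRCm38.p6). Figures were drawn with matplotlib 3.10.9.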

Additional observations from a re-analysis of the deposited data

How the results depend on the processing

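With upper-quartile scaling 222 genes rose and 188 fell, and with no filter 264 and 227. With DESeq2 167 rose and 190 fell, of which 132 and 108 were also called by edgeR, so the split between directions turned. The cause of these shifts was not tested. Under the other alternatives the counts stayed within 1.5 times the 143 and 111: limma-voom gave 129 and 92 (120 and 77 shared), the length trend removed 109 and 75 (103 and 73 shared), and the VAT libraries alone 152 and 131. The counts at 2-fold or more against both references, 284 higher and 295 lower, were 452 and 494 with no level minimum. Leaving out 1 reference library, which gives a value with no test, moved the count of higher genes to between 344 (without library 1) and 894 (without library 2) and that of lower genes to between 442 and 733. Of 91 named or listed genes that passed, 0 changed direction in these alternatives. Of them 12 lost the call with limma-voom, 12 with the length trend removed, 6 with DESeq2 and 6 with the VAT libraries alone, while 79 were tested at the 5 CPM filter and kept the call there. Shifts of the fitted log2 change on leaving out 1 reference library were set against the standard deviation of log2 (CPM + 1) between the references. By that rule 28 of the 91 moved without library 1 and 32 without library 2. The added 1 CPM shrinks that deviation for genes near 0 CPM, so these can count as moved after small shifts. Duoxa1 did so with 6.49 in the fit and 6.53 without library 1, while Mrgprg ran from 7.41 to 11.59. No paired analysis was possible because the VAT groups share at most 1 library number, so a block on the number leaves no residual degree of freedom. With 1 library in the CD26+CD142+ group, no test can use the spread within that group.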
